A study of Arabidopsis thaliana with 6 samples.

Results

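Salicylic acid (SA) and N-hydroxypipecolic acid are the hormone-like metabolites through which Arabidopsis mounts local and systemic disease resistance. The 10 genes described here make these metabolites or switch on the genes that do. They were picked by locus from the 21342 loci that each have 1 name across the array files, and every locus was found, each with 1 probe: ICS1 (AT1G74710), ICS2 (AT1G18870), EDS5 (AT4G39030), PBS3 (AT5G13320), EPS1 (AT5G67160), SARD1 (AT1G73805), CBP60g (AT5G26920), ALD1 (AT2G13810), SARD4 (AT5G52810) and FMO1 (AT1G19250).

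Gene expression had been measured on 6 Agilent arrays with 2 colours, the control plant in Cy3 and the treated or transgenic plant in Cy5. On 4 arrays, 28-day plants of the Columbia ecotype had received 5 mM SA for 2, 5, 10 or 24 h, with 1 array a time, and were set against untreated plants of the same age and ecotype. On the other 2 arrays, 28-day plants overexpressing SIBA, the gene AT3G56710 (SIB1), were set against plants carrying the vector, and the plants named CA32F3 and CA32F4 are called line 1 and line 2 here. All plants were sampled whole without the root, and no other allele or agent is given. The labels do not give the ecotype of the overexpressors, the promoter of the transgene, or whether the lines were separate transformations. They also do not say that the samples came from separate cultures, or that controls differed between arrays. The p-values therefore reflect the spread among these arrays alone, and that spread may be technical. In whole shoots, fewer cells of a type and less RNA per cell cannot be told apart.

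The plant makes most of its SA in response to infection from chorismate. Isochorismate synthase converts chorismate to isochorismate in the plastid, EDS5 carries isochorismate out, PBS3 joins it to glutamate, and the conjugate then breaks down to SA, by itself or with the help of EPS1. Pipecolic acid is made from lysine by ALD1 and SARD4, and FMO1 hydroxylates it to the mobile form. The transcription factors SARD1 and CBP60g bind genes of both branches, so the question put to these arrays is whether supplied SA, or a gene that SA induces, is followed by a change in the genes of its own synthesis.

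Values are log2 ratios, Cy5 over the control on the same array, after correction for local background and within-array normalization, so that 1 stands for a 2-fold higher and -1 for a 2-fold lower signal. Spot signals are given in the scanner's units above local background. The 2 h array and both overexpressor arrays were dim, with median Cy5 signals of 21.5, 79 and 84, against 206.5, 300 and 404 at 5, 10 and 24 h. A constant of 50 is added to the signals before ratios are taken, which pulls the ratios of dim spots toward 0. Where the scanner software replaced a signal near background by a surrogate value, this is stated, and dyes were never swapped, so that a probe that favours a dye would shift all its ratios the same way. SIB1 itself stood at 5.25 in line 1 and at 5.59 in line 2 on this scale. Of the organ markers listed as a check, 0 of 9 shoot, 0 of 8 root and 0 of 8 flower genes passed the SA test. Over all probes, 2.8% passed it as higher and 0.954% as lower. At such shares 0 calls among so few genes are likely, so the counts cannot decide whether organ content differed.

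Within the synthesis of SA, supplied SA was followed by ratios of ICS1 and PBS3 that were highest at 5 h and by a ratio of EDS5 above 2-fold at every time. Over both pathways 3 of the 10 genes were called higher in the mean of the SA times, SARD4 (8.70-fold), EDS5 (3.15-fold) and CBP60g (3.00-fold), against 2.8% of all 21280 probes tested, and 0 were called lower, against 0.954%. A call needs an adjusted p under 0.05 from limma and a mean of at least 2-fold. No time had a replicate, so the error of this mean is the spread between times. The remaining 7 genes did not pass, and for ICS1 and PBS3 the mean of a ratio that was high at 1 time has a wide error.

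**Figure D1:**
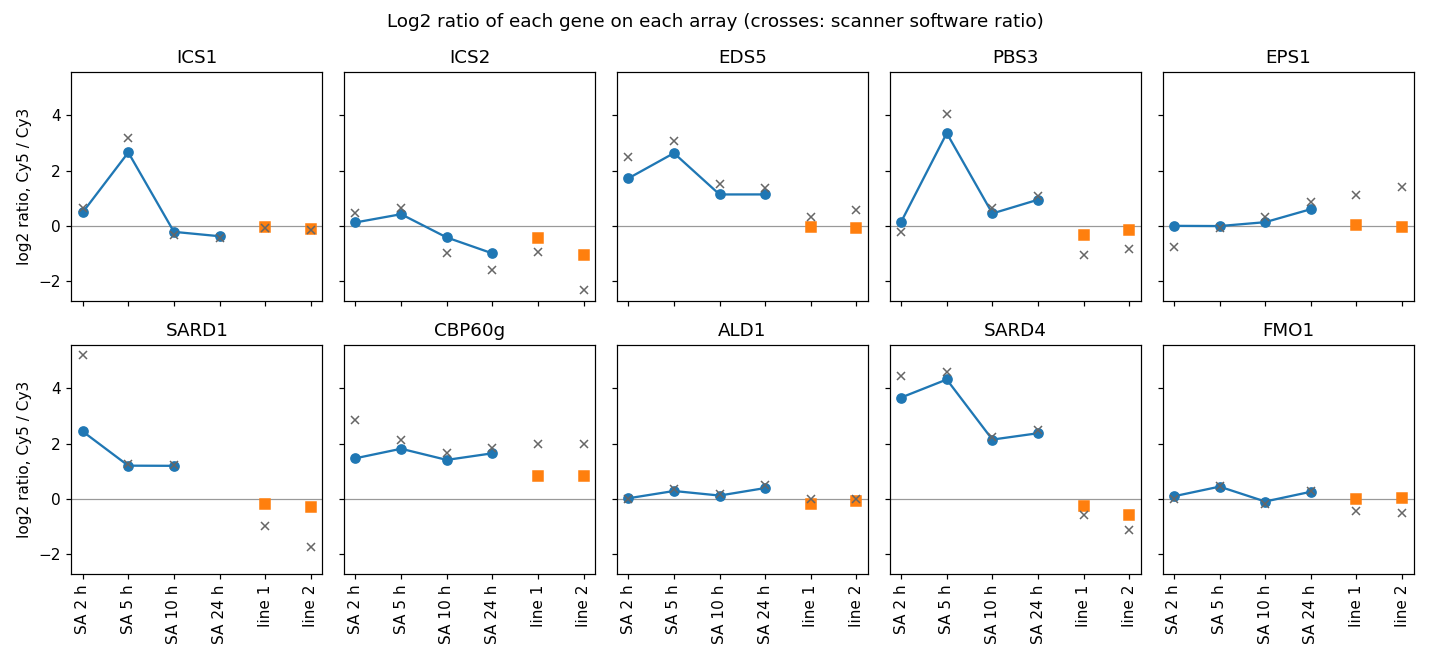
Log2 ratio of Cy5 over Cy3 (vertical axis) of the 10 genes on each array. Circles joined by lines are the SA arrays in order of time, squares are overexpressor lines 1 and 2, and crosses are the scanner software's own ratios without the added constant. ICS1 and PBS3 peak at 5 h, SARD4 is at 2.14 or more at every SA time, and the crosses lie farthest from the circles on the 2 h array and the line arrays.

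ICS1 encodes the isochorismate synthase that makes nearly all SA formed after infection. At 2, 5, 10 and 24 h its log2 ratio was 0.49, 2.65, -0.21 and -0.37. Only the 5 h array stood at 2-fold or more, with a spot signal of 936 in treated and 95 in control plants, a ratio of 6.28-fold. At 10 h the signals were 150 and 127, and at 24 h they were 349 and 296, so that the ratio lay slightly below 0 once the brighter Cy5 channel had been normalized. The mean was 0.64 ± 1.39 (SD, n = 4), with a 95% interval from -0.79 to 2.07, above 0 on 2 of 4 arrays (limma, adjusted p = 0.543). Without the 5 h array the mean was -0.031.

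ICS2, a second isochorismate synthase with a minor part in SA synthesis, had log2 ratios of 0.13, 0.42, -0.41 and -0.99 at 2, 5, 10 and 24 h. The values lay above 0 at the early and below 0 at the late times. The 24 h value lay just short of 2-fold lower and passed it in 4 of 5 other processings, at -1.32 with an added constant of 16, -1.12 with median centring, -1.58 in the scanner software's ratio and -1.38 in the authors' deposited table. The mean was -0.21 ± 0.62 (SD, n = 4; limma, adjusted p = 0.666), and without the 24 h array it was 0.046.

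EDS5, the transporter that exports isochorismate from the plastid, was higher with SA at every time. Over the same times the log2 ratio was 1.72, 2.63, 1.14 and 1.14, with treated signals of 233, 1077, 377 and 490 against control signals of 59, 116, 97 and 128. All 4 arrays exceeded 2-fold, and the 5 h array was the highest at 6.18-fold. The mean was 1.65 ± 0.70 (SD, n = 4), higher on 4 of 4 arrays (limma, adjusted p = 0.0397). The call was lost when any one array was left out, with adjusted p-values from 0.082 to 0.0991.

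PBS3, the enzyme that conjugates isochorismate to glutamate, followed ICS1 at 5 h but not at 24 h. From 2 to 24 h the log2 ratio was 0.14, 3.35, 0.45 and 0.95. The 5 h array, with signals of 1337 in treated and 77 in control plants, gave the highest ratio of any gene of the SA branch, 10.2-fold. The 24 h value lay just short of 2-fold and passed it in 4 of 5 other processings, at 1.04 to 1.09, while the 2 h and 10 h values stayed under 2-fold. The mean was 1.22 ± 1.45 (SD, n = 4), higher on 4 of 4 arrays (limma, adjusted p = 0.271). Without the 5 h array the mean was 0.51.

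EPS1, an acyltransferase-like enzyme that speeds the release of SA from the glutamate conjugate, had log2 ratios of 0.00, -0.00, 0.14 and 0.61 at 2, 5, 10 and 24 h. Its treated spot held a surrogate value at 2 h, and the highest ratio, at 24 h, was 1.52-fold. The mean was 0.19 ± 0.29 (SD, n = 4; limma, adjusted p = 0.443).

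The regulators SARD1 and CBP60g are related transcription factors that act in part in each other's place. SARD1 had log2 ratios of 2.44, 1.20 and 1.20 at 2, 5 and 10 h, with treated signals of 375, 1586 and 2004 against control signals of 49.5, 546 and 477. Its 24 h spot, with signals of 2876 and 1055.5, carried the software's outlier mark and was not used. The 3 ratios were all above 2-fold and the 2 h array was the highest. The mean was 1.61 ± 0.71 (SD, n = 3), or 3.06-fold, and just missed the threshold (limma, adjusted p = 0.0672). SARD1 passed without the 2 h array, where its fit rests on the 2 remaining ratios, which lie close together (mean 1.20, adjusted p = 0.0442), and over the 4 fits that leave out an array the adjusted p ranged from 0.0442 to 0.182.

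CBP60g was the steadiest of the 10 genes among those above 2-fold. In order of time the log2 ratio was 1.47, 1.81, 1.41 and 1.65, with treated signals of 145, 671, 671 and 1275 against control signals of 51.2, 136.5, 134 and 219. The mean was 1.58 ± 0.18 (SD, n = 4), higher on 4 of 4 arrays (limma, adjusted p = 0.012). The call held when the 2 h or the 24 h array was left out and ended when the 5 h or the 10 h array was, with adjusted p-values from 0.0277 to 0.0564. In the latter fits no probe at all passed.

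In the pipecolic acid branch, 1 of the 3 enzymes was called, SARD4. ALD1, the aminotransferase that starts the branch from lysine, had log2 ratios of 0.03, 0.29, 0.12 and 0.39 at 2, 5, 10 and 24 h. No array reached 2-fold, the treated spot held a surrogate value at 2 h, and the largest signals, at 24 h, were 212 in treated and 105 in control plants. The mean was 0.21 ± 0.17 (SD, n = 4), with a 95% interval from -0.02 to 0.44 (limma, adjusted p = 0.228).

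SARD4, the reductase that turns the product of ALD1 into pipecolic acid, had the largest SA ratios of the 10 genes. From 2 to 24 h the log2 ratio was 3.66, 4.31, 2.14 and 2.37, with treated signals of 2536, 6036, 2616 and 3827 against control signals of 119, 212, 315 and 372. The ratio was thus 12.6-fold and 19.8-fold at the early times and 4.41-fold and 5.18-fold at the late ones. The mean was 3.12 ± 1.04 (SD, n = 4), higher on 4 of 4 arrays (limma, adjusted p = 0.0267). The call was lost when any one array was left out, with adjusted p-values from 0.0544 to 0.0883 and means from 2.72 to 3.45.

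FMO1, the monooxygenase that makes N-hydroxypipecolic acid, had log2 ratios of 0.10, 0.45, -0.09 and 0.26 at 2, 5, 10 and 24 h. Both channels held surrogate values at 2 h, so the first ratio is no measurement. The treated signals were 612, 376 and 918 at 5, 10 and 24 h against control signals of 370, 236 and 438, and no ratio reached 2-fold. The mean was 0.18 ± 0.23 (SD, n = 4), with a 95% interval from -0.10 to 0.46 (limma, adjusted p = 0.385). Without the 2 h array it was 0.20 (adjusted p = 0.475).

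**Figure D2:**
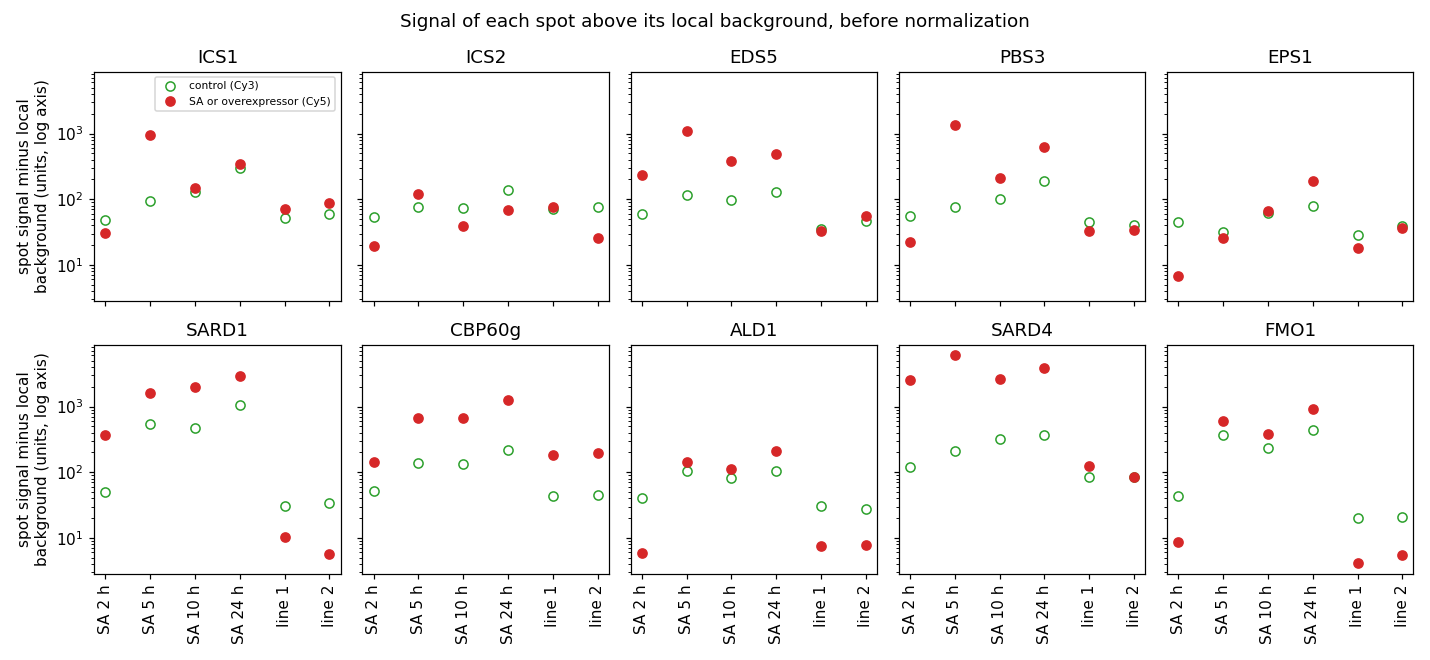
Spot signal above local background in scanner units (vertical log axis) of the 10 genes on each array, control plants in open and treated or overexpressing plants in filled circles, before normalization. SARD4 reached 6036 in treated plants at 5 h, while the treated signals of ALD1 and FMO1 lay below 10 at 2 h and in both lines.

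Set side by side over time, the genes moved most at 5 h. At 2 h, 4 of 10 were at least 2-fold higher (EDS5, SARD1, CBP60g and SARD4), against 3.84% of all probes. At 5 h ICS1 and PBS3 joined them, which made 6 of 10 against 6.09%. At 10 h the same genes as at 2 h were left, 4 of 10 against 7.3%, and at 24 h they were 3 of the 9 with a value (EDS5, CBP60g and SARD4) against 5.31%. No gene was at least 2-fold lower at any SA time, where 2.31, 3.66, 4.43 and 5.63% of probes were, but ICS2 at 24 h was so in 4 of 5 other processings, in which PBS3 at 24 h was also at least 2-fold higher. EDS5, CBP60g and SARD4, 3 of the 9 genes with 4 values, were at least 2-fold higher at every time, as were 1.71% of probes. These genes with PBS3 and ALD1, 5 of the 9, lay above 0 at every time, as did 19.6% of probes, the 2 h value of ALD1 resting on a surrogate. The median over the genes was 0.32, 1.51, 0.29 and 0.61 at 2, 5, 10 and 24 h, while the median of all probes lay between -0.01 and 0.02.

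The highest ratio fell at 5 h for 7 genes (ICS1, ICS2, EDS5, PBS3, CBP60g, SARD4 and FMO1), at 2 h for SARD1 among its 3 values, and at 24 h for EPS1 and ALD1. Over all probes with 4 values, 22.2, 18.3, 29.7 and 29.8% had their highest ratio at 2, 5, 10 and 24 h. The 5 genes with 4 values that reached 2-fold at some time (ICS1, EDS5, PBS3, CBP60g and SARD4) were all highest at 5 h, as were 28.4% of the 2338 probes of that kind, with CBP60g moving to 2 h in some processings. The fall from 5 to 10 h was 2.86 for ICS1, 2.90 for PBS3, 2.17 for SARD4 and 1.49 for EDS5 on the log2 scale, and 0.40 for CBP60g. SARD1 hardly differed between these arrays, by -0.01. With 1 array a time these differences have no error, so a time and an array cannot be told apart.

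A trend with time was tested as a slope on log2 hours, which could show a steady rise or fall but not a peak. Limma called 0 of 21280 probes, and 980 had an unadjusted p under 0.05. None of the 10 genes was called (0% of probes higher, 0% lower), and 0 of them had an unadjusted p under 0.05.

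Among the SA times, the 2 h values depended most on how dim spots were treated. The scanner software's own ratios, which add no constant, were 5.18 for SARD1, 4.45 for SARD4, 2.84 for CBP60g and 2.47 for EDS5 at 2 h. In these ratios, and with an added constant of 16, CBP60g also had its highest value at 2 h in place of 5 h. ICS1 and PBS3 at 2 h stayed under 2-fold in these ratios, at 0.65 and -0.23.

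The hour of sampling is not given, and clock genes differed between treated and control plants. At 10 h, 6 of 14 circadian clock genes exceeded 2-fold upward and 4 downward. These numbers were 1 and 1 at 2 h, 1 and 2 at 5 h, and 0 and 4 of 13 at 24 h. In line 2, 5 were higher and 4 lower, with LHY at 4.01, and in line 1 none reached 2-fold. The part of the hour of sampling in the ratios of the synthesis genes was not tested.

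In the SIB1 overexpressors, the ratios of 8 synthesis genes lay between -0.57 and 0.03, while CBP60g stood higher and ICS2 lower. CBP60g was at 0.81 in line 1 and at 0.82 in line 2, a mean of 1.76-fold, with signals of 180 and 196 against 43.4 and 45.5 in the vector controls. Its ratio stood at percentile 99.7 of all probes in line 1 and 97.1 in line 2. The mean was 0.82 ± 0.0038 (SD, n = 2), higher on 2 of 2 arrays, with a 95% interval from 0.63 to 1.004 (limma, adjusted p = 0.664). CBP60g lay above 0 on all 6 arrays, as did 8.39% of probes. Since the dyes were never swapped, a dye effect of this probe and a change of the gene cannot be told apart. CBP60g passed 2-fold in both lines with an added constant of 16, at 1.18 and 1.18. It also did so in the authors' deposited table, at 1.12 and 1.28, and in the scanner software's ratios, at 1.98 and 1.97. Without background correction it stayed under 2-fold, at 0.76 and 0.75. With each array centred on its median in place of a loess curve, line 1 stood at 0.999 and line 2 at 1.18. Its mean was then 1.09, and it was the 1 gene of the 10 called (adjusted p = 0.0421, against 0.0421 to 0.689 over all processing alternatives). SARD1, ALD1 and FMO1 had the same adjusted p under median centring, with means of -0.75, -0.67 and -0.54 that missed the 2-fold threshold and rest in part on surrogate values.

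ICS2 was at -0.42 in line 1 and at -1.04 in line 2, with overexpressor signals of 77 and 25.6 against control signals of 72 and 77. Line 2 was the single case of a 2-fold lower value among the 10 genes, against 2.26% of probes there and 0.0838% in line 1. The mean was -0.73 ± 0.44 (SD, n = 2), lower on 2 of 2 arrays, with a 95% interval from -1.54 to 0.07 (limma, adjusted p = 0.664).

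SARD4, the largest SA responder among the genes, had -0.27 and -0.57 in lines 1 and 2 (mean -0.42 ± 0.22, SD, n = 2). Its 95% interval ran from -0.84 to 0.00. PBS3 had -0.31 and -0.15, and SARD1 had -0.17 and -0.29, with a surrogate value in the overexpressor channel of line 2. None of these values reached 2-fold.

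The ratios of ICS1 were -0.05 and -0.10, with a 95% interval of the mean from -0.27 to 0.12, and those of EDS5 were -0.05 and -0.09, from -0.26 to 0.12. EPS1 had 0.02 and -0.05, with a surrogate value in the control of line 1. FMO1 had -0.02 and 0.03, with a surrogate value in the overexpressor channel of line 1. Its overexpressor signals were 4.1 and 5.5, and its control signals stood at percentile 1.94 and 2.1 of all probes. Ratios so near the floor cannot show that FMO1 was unchanged in the lines. ALD1 held surrogate values in both channels of both lines, so its ratios of -0.19 and -0.06 measure nothing.

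In the main processing no gene was at least 2-fold higher in a line, where 0.191% of probes in line 1 and 1.88% in line 2 were. This depends on the processing, since CBP60g passed 2-fold in both lines in some alternatives, as given above. EPS1 did so in the scanner software's ratios. In the main processing and without ALD1, both ratios lay below 0 for 6 of 9 genes, against 30.2% of probes. FMO1, near the floor in both lines, is counted among the 9 and not among the 6. Limma called 0 of 21482 probes in the overexpressors (0% higher, 0% lower), SIB1 included, and 995 had an unadjusted p under 0.05, CBP60g among them as the one of the 10 genes. A variance model that depends on brightness called 1 probe, which was none of the 10 genes. With 2 arrays the precision is limited.

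The dim line arrays also make these ratios depend on the processing. In the scanner software's ratios EPS1 stood at 1.13 and 1.40 in lines 1 and 2 and EDS5 at 0.32 and 0.58, so that both means turned to above 0. SARD1 was at -0.98 and -1.73 there, PBS3 at -1.04 and -0.82, and ICS2 at -0.92 and -2.32, farther below 0 than with the added constant. The means of FMO1 and ICS1, close to 0, also changed sign under median centring, to -0.54 and 0.012.

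**Figure D3:**
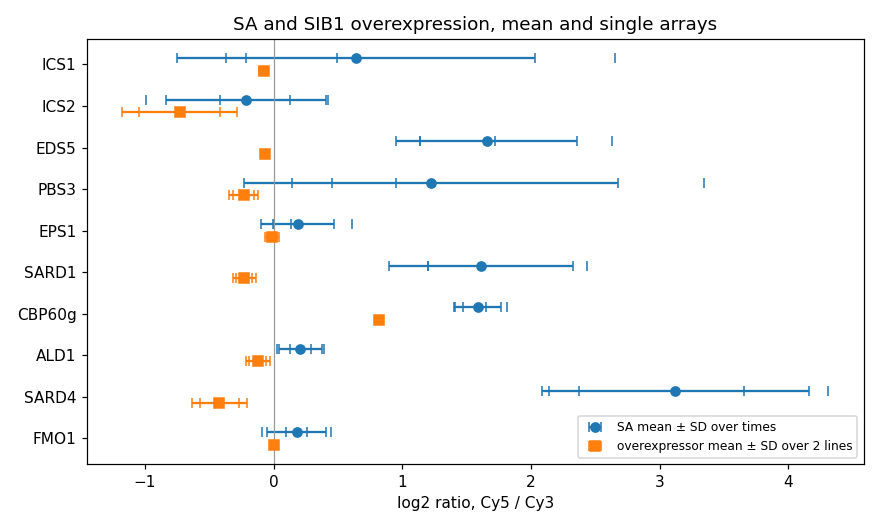
Mean log2 ratio of the 10 genes over the SA times (circles) and over the overexpressor lines (squares), with bars of 1 SD and ticks for the single arrays. The SA arrays lie above both lines for EDS5, PBS3, SARD1, CBP60g and SARD4, and for ALD1, whose line values rest on surrogate signals, and CBP60g is the one gene whose lines both lie clearly above 0, at 0.81 and 0.82.

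SA and SIB1 overexpression were compared directly in a fit over all 6 arrays. ALD1 was not measured in the lines, and FMO1, still counted here, lay near the floor there. For 5 of the other 9 genes (EDS5, PBS3, SARD1, CBP60g and SARD4) each SA array with a value lay above both lines. This was so for 15.3% of the probes with values on all 6 arrays, whereas SARD1 had 3 SA values. The largest difference was that of SARD4, 3.54 (95% interval from 1.90 to 5.18; limma, adjusted p = 0.147). Next were SARD1 with 1.84 (0.69 to 2.99, adjusted p = 0.229) and EDS5 with 1.72 (0.61 to 2.84, adjusted p = 0.228). For CBP60g, which was above 0 in both settings, the difference was 0.77 (0.42 to 1.11, adjusted p = 0.146). Over the processing alternatives the difference of CBP60g ranged from 0.14 to 0.77. In the scanner software's ratios its lines, at 1.98 and 1.97, lay above its SA arrays at 10 and 24 h, at 1.67 and 1.84. Limma called 0.0605% of probes higher with SA and 0.00466% lower, and 0 of the 10 genes. An unadjusted p under 0.05 was found for 4 of the 10 genes and for 2616 of all 21482 probes. The 2 h array and the line arrays share a dim signal and extra file columns that the other SA arrays lack. Their part in this difference was not tested for single genes. A fit with the file layout as a block sets the 2 h array alone against the lines, so it cannot decide this.

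Genes around the pathway were described from lists, each set beside the SA calls over all probes given above (2.8% higher, 0.954% lower, median -0.01). The lists were chosen with earlier results of these data known, so their counts are descriptive and no test of enrichment. Among regulators upstream of SA synthesis, 4 of 21 were called higher and 0 lower, with a median of 0.40. PAD4, the lipase-like partner of EDS1, had 1.84, 3.49, 2.16 and 1.11 at 2, 5, 10 and 24 h and, like most synthesis genes, was highest at 5 h (mean 2.15 ± 0.997, SD, n = 4; limma, adjusted p = 0.0459). EDS1 itself had -0.26, 0.33, 1.23 and -0.47 (adjusted p = 0.734).

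ANAC055, a NAC factor that represses ICS1 in the jasmonate response, had 1.08, 2.49, 2.91 and 3.03 at the same times (mean 2.38, adjusted p = 0.0321). WRKY54 (mean 2.58, adjusted p = 0.0287) and WRKY70 (mean 2.42, adjusted p = 0.0437), which restrain SA accumulation, were higher with SA at every time. In lines 1 and 2 they stood below the vector control, WRKY54 at -1.10 and -1.36 and WRKY70 at -0.94 and -1.76. All of these calls, like those of the synthesis genes, ended when the 5 h or 10 h array was left out. No probe at all passed in those fits, so the loss is not particular to these genes.

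Of 8 receptors and outputs, 4 were called higher and 0 lower (median 1.34). They were NIMIN1, which binds NPR1 (mean 4.64), SIB1 (3.68), the SA receptor NPR3 (1.87) and the receptor and co-activator NPR1 (1.13). PR1, the classical output marker, had 0.10, 0.71, 2.47 and 2.89 (adjusted p = 0.158), the first against a surrogate control value, and was thus highest at 24 h. The outputs PR2 and PR5 had SA means of 0.12 and 0.33 (limma, adjusted p = 0.472 and 0.373).

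Enzymes that modify SA and N-hydroxypipecolic acid gave 3 of 7 higher calls and 0 lower (median 2.04). UGT76B1, which attaches glucose to both, had 5.20, 5.32, 4.94 and 4.01 at 2, 5, 10 and 24 h (mean 4.87 ± 0.60, SD, n = 4; limma, adjusted p = 0.0112), and was at 0.15 and 0.08 in the lines, with a surrogate value in the control of line 1. The SA glucosyltransferase UGT74F2 (mean 4.07) and the SA hydroxylase DMR6 (2.66) were the others, each highest at 5 h.

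The supply of precursors did not show such calls. Of 10 genes of the shikimate pathway to chorismate, 0 were called, with a median of 0.31 and 3 at an unadjusted p under 0.05. Of 11 genes for other uses of chorismate and phenylalanine, 0 were called, with a median of -0.08 and 3 at an unadjusted p under 0.05 by limma. Both shares at this p lie close to that over all probes, 5526 of 21280. Of 10 genes of lysine synthesis and breakdown, 0 were called higher and 1 lower (median -0.28). It was AK3, an aspartate kinase at the entry to lysine synthesis, with -1.40, -2.50, -2.31 and -1.30 at 2, 5, 10 and 24 h (mean -1.88, adjusted p = 0.0269), lowest at 5 h. AGD2, the aminotransferase of lysine synthesis related to ALD1, had -0.99, -0.37, 0.21 and -1.23 (adjusted p = 0.241), and LKR/SDH, which degrades lysine, had -0.08, 0.11, 1.22 and 0.18 (adjusted p = 0.43).

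Relatives of the regulators and of the transporter were not called, 0 of 7 with a median of -0.14. By limma 2 had an unadjusted p under 0.05, a share close to that over all probes, 5526 of 21280. The SA means were -0.14 for CBP60a, 0.66 for CBP60b, -0.46 for CBP60c, 0.09 for CBP60d, -0.11 for CBP60e, -0.37 for CBP60f and -0.20 for EDS5H. CBP60g was the one called member of its family, with SARD1 next to the threshold. Of 5 measured genes of systemic resistance, 1 was called higher, LLP1, a lectin-like gene with a mean of 3.38, and it stood at -2.17 and -3.27 in the lines.

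**Figure D4:**
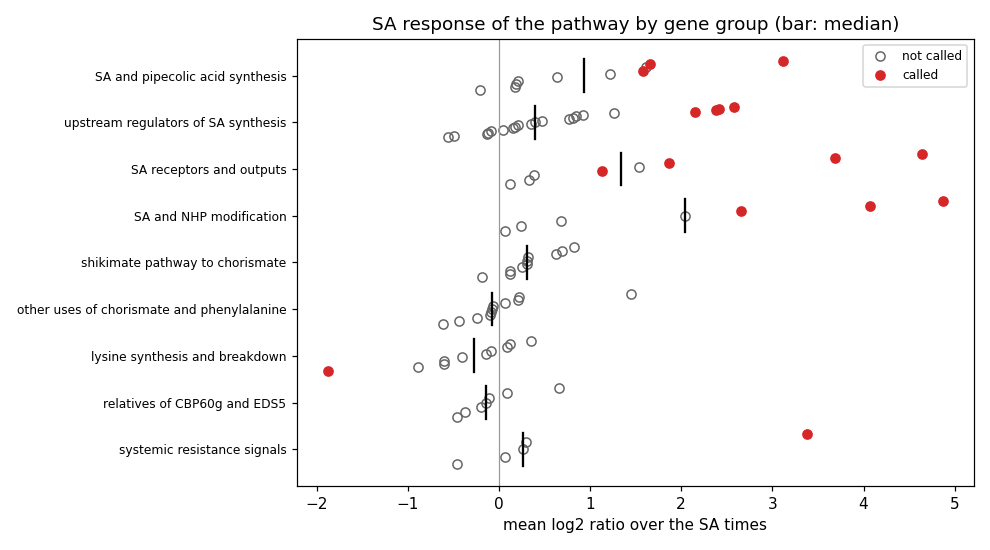
Mean log2 ratio over the SA times of each gene (horizontal axis) by gene group, filled where called by limma and open where not, with a bar at the median of the group. Higher calls lie in the synthesis genes, their regulators, the receptors and outputs, the modifying enzymes and, with LLP1, the systemic signals, while the shikimate and chorismate groups hold none and the lysine group holds AK3 at -1.88.

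The likeness of patterns was measured as the root mean square difference of log2 ratio over the arrays. Candidates were 6659 genes with spots marked well above background, a mark that nearly every spot of the dim arrays carried, and a range of at least 1. Nearest to ICS1 were AT1G35513 (0.433), AT1G15330 (0.444) and RBL7 (0.478), and nearest to PBS3 were ERD2 (AT1G56410, 0.435), 4CL5 (0.489) and AT5G39670 (0.510). EDS5 was much closer to its neighbours, ATL8 (0.212), AT5G16450 (0.218) and AT5G62860 (0.240), and SARD1, over 5 arrays, to AT3G50650 (0.155), AT1G50740 (0.225) and AT4G23470 (0.243). CBP60g had AT5G18490 (0.235), HB1 (0.273) and UGT71B6 (0.279), and SARD4 had AT4G20830 (0.450), AT5G51830 (0.508) and AT1G08050 (0.512). CBP60g, EPS1, ALD1 and FMO1 varied by less than this range and so could not be named as neighbours, and no other of the 10 genes was. ERD2 shared the peak of PBS3, at 3.42 at 5 h against 0.07 at 2 h, but stood at 1.31 and 1.52 at 10 and 24 h, where PBS3 had 0.45 and 0.95. UGT71B6 shared the position of CBP60g above the control in both lines, at 1.34 and 0.87. Neighbours were picked for likeness on these same arrays, so such shared features follow from the choice.

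For the genes whose values stayed closer to 0, flatter patterns were not candidates. The nearest candidates were AT1G75280 (0.264), AT1G30200 (0.280) and AT5G63060 (0.307) for ICS2, AT1G55780 (0.153), AT5G64550 (0.155) and AT1G04380 (0.163) for EPS1, IDH1 (0.204), LAC13 (0.211) and AT2G39530 (0.211) for ALD1, and AKN2 (0.208), AT4G29310 (0.254) and UGT74D1 (0.264) for FMO1. Among the 10 genes over the SA times, ALD1 and FMO1 were the closest pair (0.154), EDS5 and CBP60g lay 0.515 apart, and ICS1 and PBS3 0.833. Neither ALD1 nor FMO1 reached 2-fold at any SA time, and both held surrogate values at 2 h. Patterns that stay near 0 lie close to each other, so the small distance of this pair does not show a shared response.

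The control channel of SARD1 and FMO1 differed between arrays before any ratio was taken, which was noticed after their values were seen. Among all probes of an array, the control signal of FMO1 stood at percentile 15 at 2 h and at 1.94 and 2.1 in lines 1 and 2, but at 69.5, 59.0 and 65.4 at 5, 10 and 24 h. That of SARD1 stood at 34.8, 34.3 and 36.0 on the first set of arrays and at 77.9, 76.4 and 85.5 on the second. The smallest gap between the sets was 43.9 percentile points for FMO1 and 40.4 for SARD1, and 2.21% and 2.75% of probes had a gap as large. The other 8 genes had no such gap. The split coincides with the dim arrays and with the column layout of the files, so that the array set, the control plants and the time of sampling cannot be told apart.

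**Figure D5:**
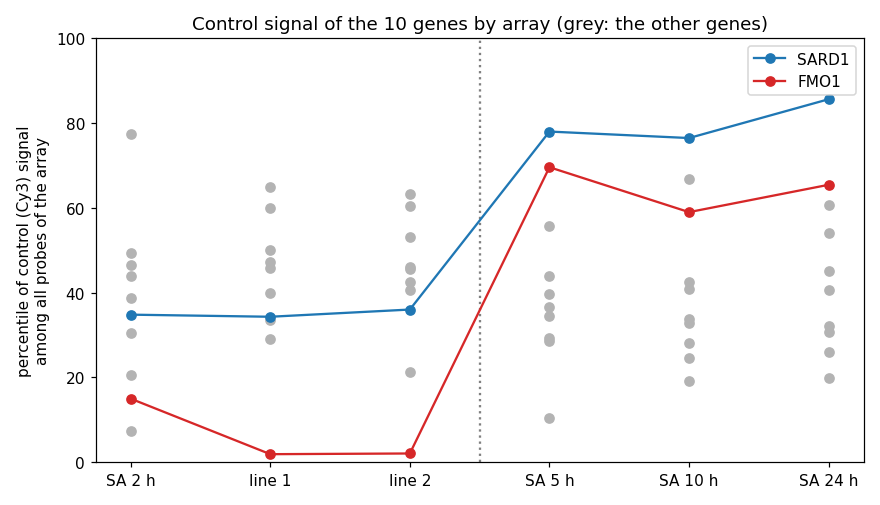
Percentile of the control (Cy3) signal among all probes of its array (vertical axis), with the dim arrays to the left and the brighter arrays to the right of the dotted line. Each gene is to be read across the arrays and not against the others. SARD1 and FMO1 lie at 36.0 or less on the left and at 59.0 or more on the right.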

How the data were processed

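The deposited array files are Agilent Feature Extraction output, per the file headers, with mean spot intensity, median local background intensity, spot marks and a log10 ratio of Cy5 over Cy3. The deposited series table holds a linear ratio (log2 correlation with the values here 0.946 to 0.993). Its normalization and the version and settings of the software are not given in these sources. Per the labels' protocols, Trizol RNA was amplified linearly and labelled.

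From these, limma 3.58.1 in R 4.3.3 applied normexp with an offset of 50 and loess within each array, without control spots and outlier marks (10 to 25 spots, 1722 at 24 h). Ratios were tested against 0 with lmFit and eBayes and adjusted by Benjamini-Hochberg over all probes that passed a filter. It asked for a signal marked well above background in a channel on 2 arrays. On the 2 h array and lines 1 and 2, the software so marked 21500, 21500 and 21498 of 21500 probes in both channels, surrogates included. A tested probe therefore need not have held a detected signal there. SA values had to be present on 3 arrays, or on 2 in fits that leave out an SA array and in the difference. Ratios against 0 leave out the control's own spread. The steps were tested on simulated data. Figures used Python 3.11.15 and matplotlib 3.10.9.

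The 10 genes and all lists were chosen with earlier results of these data known. From each list the text names the called genes (up to 4), those at least 2-fold at every SA time and a fixed set (EDS1, PAD4, NPR1, NPR3, PR1, UGT76B1, AGD2, LKR/SDH, SIB1, CBP60 relatives, EDS5H), with the 3 nearest patterns of each gene. PR2 and PR5 were added beside PR1. A RefSeq gene table of TAIR10.1 supplied names for 21157 loci, and the files name no build, so no coordinates are given. Alternatives were other background corrections and normalizations, filters, a variance trend and leaving out arrays.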

Additional observations from a re-analysis of the deposited data

Results flagged for a closer look

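For 5 genes every SA array with a value lay above 0 and both overexpressor lines below it. Among probes with values, 19.6% lay above 0 on all 4 SA arrays and 30.2% lay below 0 in both lines. The share of probes that did both was not counted. The SA mean exceeded the overexpressor mean by 3.54 on the log2 scale for SARD4, 1.84 for SARD1, 1.72 for EDS5, 1.46 for PBS3 and 0.33 for ALD1. The opposite directions themselves were not tested. In the fit of the difference over 6 arrays none of the 5 passed limma's threshold, with adjusted p-values of 0.147, 0.229, 0.228, 0.601 and 0.417 in the same order. The line values of ALD1 rest on surrogate signals in both channels, and SARD1 has 3 SA values and a surrogate in line 2.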

How the results depend on the processing

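The 3 genes called in the SA mean became 0 to 2 when an SA array was left out: 0 without the 5 h or the 10 h array, 1 (CBP60g) without the 24 h array and 2 (SARD1 and CBP60g) without the 2 h array, which is also the value within the shared file layout. Without background correction EDS5 missed the threshold (adjusted p = 0.0501), and with median centring or a variance trend SARD1 passed (adjusted p = 0.0397 and 0.0495). In the overexpressors 1 gene was called under median centring and 0 otherwise. The counts for the trend and the difference stayed at 0 for the 10 genes in every alternative run. Over all probes, calls of the difference went from 13 higher and 1 lower to 76 and 5 with an offset of 16, 74 and 19 with median centring, 60 and 11 with the scanner software's ratios, 32 and 3 with the authors' deposited ratio, and 0 without the 5 h array, the 10 h array or either line. For the SA mean, median centring gave 1040 higher and 86 lower calls and the authors' ratio 893 and 532, against 596 and 203.

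The direction turned for small means. With 1 array left out, the SA mean ranged from -0.031 (without 5 h) to 0.98 for ICS1 and from -0.42 to 0.046 (without 24 h) for ICS2, and the overexpressor mean from -0.055 to 0.023 for EPS1 and from -0.017 to 0.025 for FMO1. The overexpressor mean of FMO1 was -0.0079 without background correction, -0.54 with median centring and -0.46 with the scanner software's ratios. That of ICS1 was 0.012 with median centring, and the scanner software's ratios gave 0.45 for EDS5, 1.26 for EPS1 and 0 for ALD1, with a difference of SA over lines of -1.17 for EPS1. The cause was not tested. Of the other gene values under an alternative, 379 kept their direction and their side of the threshold. No paired analysis was possible because the labels give no replicate numbers that pair arrays, and each time has 1 array. Dim signals limit ALD1, EPS1 and FMO1 at 2 h and in the lines.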
